A study of Mus musculus with 7 samples.

Results

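The protein disulfide isomerase (PDI) family was followed in the epididymal fat pad, a visceral white adipose depot of male mice, through 9 genes chosen by name. They are P4hb, Pdia3, Pdia4, Pdia5, Pdia6, Txndc5, Txndc11, Tmx1 and Ero1lb, which the annotation lists under its current symbol Ero1b. All 9 were measured, by 10 of the 21789 probe sets that carry exactly 1 gene symbol and stand for 19938 genes. Where a gene had 2 probe sets (Pdia4), the one with the higher mean was used. The rule that names them uses no expression value, but they were chosen with earlier results of these data known. The 7 libraries came from male C57BL/6J mice aged 17 weeks on chow, with 4 libraries from wild type and 3 from aP2-XBP1 transgenic mice. The transgene is driven by aP2, the promoter of the adipocyte fatty acid carrier Fabp4, and the labels do not say how many transgenic lines were used. Each library was read on 1 single-colour array, and its values are log2 expression after RMA, so a difference of 1 is a doubling. The labels number replicates without naming separate animals, so p-values reflect how far these samples spread, some of which may be technical.

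Proteins that leave the cell are folded in the endoplasmic reticulum (ER), where PDI family members make, break and rearrange the disulfide bonds that hold them in shape. Their thioredoxin-like domains pass electrons to ER oxidases such as the ERO1 proteins, which reset them for the next bond. XBP1 is a main transcription factor in the unfolded protein response, which raises the folding capacity of the ER. In adipocytes this machinery matters for adiponectin, a hormone whose larger multimers are held together by disulfide bonds.

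The promoter windows of the members are shown first, because the response to ER stress is known to act through short promoter elements. RefSeq windows (GRCm38.p6) running from 250 bases before to 50 bases after each annotated start were available for all 9 genes, 12 windows in total. Both strands were searched for the ER stress response element ERSE (CCAAT and CCACG with 9 bases between them), for ERSE-II (ATTGG and CCACG with 1 base between them), for the core of the unfolded protein response element (TGACGTGG) and for the shorter CCACGT. Every TGACGTGG also holds CCACGT on the other strand, and every ERSE holds CCAAT. Windows of 4 members with a match to one of the longer elements, and that of Tmx1, the member with a lower transgenic mean, are printed 5′ to 3′ on the gene's strand. Capitals mark the fixed letters of ERSE, TGACGTGG and CCACGT.
Pdia6, chr12:17266339-17266638, plus strand: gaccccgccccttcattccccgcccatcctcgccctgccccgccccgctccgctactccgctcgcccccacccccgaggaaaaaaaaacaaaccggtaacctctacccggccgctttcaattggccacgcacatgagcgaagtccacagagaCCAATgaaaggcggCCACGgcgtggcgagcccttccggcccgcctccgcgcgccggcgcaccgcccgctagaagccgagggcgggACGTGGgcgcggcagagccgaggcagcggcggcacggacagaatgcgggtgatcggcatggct
Txndc11, chr16:11134483-11134782, minus strand: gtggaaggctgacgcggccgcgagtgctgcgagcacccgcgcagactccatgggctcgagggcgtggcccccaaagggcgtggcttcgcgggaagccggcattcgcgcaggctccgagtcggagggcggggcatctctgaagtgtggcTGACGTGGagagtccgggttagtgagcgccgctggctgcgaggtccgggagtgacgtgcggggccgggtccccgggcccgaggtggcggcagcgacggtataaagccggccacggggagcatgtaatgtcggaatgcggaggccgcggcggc
Txndc5, chr13:38527865-38528164, minus strand: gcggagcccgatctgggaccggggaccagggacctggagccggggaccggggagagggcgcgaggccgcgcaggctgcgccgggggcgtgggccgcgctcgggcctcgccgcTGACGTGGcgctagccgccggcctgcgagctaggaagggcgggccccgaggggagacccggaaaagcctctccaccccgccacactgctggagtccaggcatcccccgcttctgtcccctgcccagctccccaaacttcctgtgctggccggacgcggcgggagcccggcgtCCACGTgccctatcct
Ero1b, chr13:12565633-12565932, plus strand: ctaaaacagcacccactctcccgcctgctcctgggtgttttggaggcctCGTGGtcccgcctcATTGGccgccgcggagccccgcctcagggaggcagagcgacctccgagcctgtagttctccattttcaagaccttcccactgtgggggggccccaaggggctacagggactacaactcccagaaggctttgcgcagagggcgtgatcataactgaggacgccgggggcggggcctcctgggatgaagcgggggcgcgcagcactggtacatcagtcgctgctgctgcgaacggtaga
Tmx1, chr12:70452904-70453203, plus strand: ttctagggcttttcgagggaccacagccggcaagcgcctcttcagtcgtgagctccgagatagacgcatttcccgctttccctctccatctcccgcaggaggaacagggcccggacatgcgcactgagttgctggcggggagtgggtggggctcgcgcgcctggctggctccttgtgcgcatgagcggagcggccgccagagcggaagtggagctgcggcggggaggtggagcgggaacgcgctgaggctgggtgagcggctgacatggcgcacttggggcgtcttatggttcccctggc

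A full ERSE was found in 2 member windows, those of Pdia6 and Ero1b, while 0.119% of all 32851 windows held one. In Pdia6 it lies on the gene's strand, from 98 to 80 bases before the start. In Ero1b it lies on the opposite strand, from 201 to 183 bases before the start. TGACGTGG was found in the first of the 2 windows of Txndc11 (102 to 95 bases before the start) and in 1 of the 3 windows of Txndc5 (138 to 131 bases before the start), against 0.676% of all windows. ERSE-II was found in 0 of the 12 member windows and in 0.0365% of all windows. The shorter CCACGT was present in 5 of the 12 windows, those of P4hb, Pdia5, Pdia6, Txndc11 and Txndc5, beside 8.31% of all windows. CCAAT alone was in 6 of the 12 and in 37.4% of all. The window of Tmx1 held none of the 5 sets of letters, which says only that they are not in those 300 bases. Of the 12 member windows, 10 had a GC content of 62% to 75.7% and 2 had 51.3% and 52.3%, while the median over all windows was 52.7%. The members' windows were thus richer in GC than those behind the shares given, and a match is a description of the letters, not of a bound site.

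Before the members are described, the libraries themselves need a word. Xbp1 read 8.90 to 9.19 in wild type and 9.66 to 9.99 in transgenic libraries, and whether its probe set reads the transgene, the endogenous gene or both was not tested. The adipocyte list was bright in every library, with all 8 of its 8 genes at a higher transgenic mean, beside 53.6% of all probe sets tested. Its summed level (the log2 of the summed linear values) spanned 13.51 to 14.18 in wild type and 14.18 to 14.24 in transgenic fat. Of 7 measured epididymal genes, 3 (Serpina1f, Spink8 and Defb42) had a lower and 4 (Lcn8, Lcn9, Adam7 and Rnase10) a higher transgenic mean. The summed level of the 7 follows the first 3 genes, and stood at 11.28 to 12.05 in wild type replicates 1, 3 and 4. It was only 5.45 for wild type replicate 2, where transgenic fat gave 5.52 to 6.39. Transgenic replicate 1 was the highest library for the other 4, with Adam7 at 4.69 against 3.04 to 3.60 in the rest, Lcn8 at 4.14 against 2.51 to 3.09 and Lcn9 at 3.60 against 2.66 to 2.72. Smooth muscle genes followed, with 6 of 6 at a lower transgenic mean and summed levels of 11.23 to 13.26 in wild type and 10.57 to 11.15 in transgenic fat. The corresponding ranges for macrophages (6 of 6 genes lower) were 11.43 to 12.73 and 11.74 to 12.01. For endothelial cells (5 of 5 higher) they were 10.27 to 10.72 and 10.58 to 10.88, and for progenitors and fibroblasts (4 of 5 lower) 12.95 to 13.49 and 13.07 to 13.13. Plasma and B cells, which are rich in PDI family proteins, gave 6.37 to 7.19 and 6.75 to 6.81 over 7 genes, 4 of them higher. Exocrine pancreas, a site of high Ero1b, gave 5.52 to 5.78 and 5.82 to 6.15 over 4 genes, 3 of them higher. That sum follows Cela1, with means of 4.90 in wild type and 5.36 in transgenic fat. Cpa1, Prss2 and Ctrb1 were dim, with group means of 2.63 to 3.06, and differed by 0.07, -0.03 and 0.02. Against wild type replicate 2 alone, 6 of 8 adipocyte and 3 of 5 endothelial genes were higher (52.1% of all probe sets). Their median differences were then 0.04 and 0.07, beside 0.40 and 0.29 against all 4 controls. For smooth muscle and macrophage genes the medians were -0.24 and -0.21, beside -1.79 and -0.46. For progenitors and fibroblasts the median was -0.26, beside -0.16. The part of these cell types in the member values was not tested, and in a whole fat pad fewer cells of a type cannot be told apart from less RNA per cell. Member values are therefore also given against wild type replicate 2 alone, the control low in Serpina1f, Spink8 and Defb42.

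Transgenic fat had a higher mean for 8 of the 9 members, beside 53.6% of all probe sets tested. Pdia6 stood out at 2.04-fold, Txndc11 followed at 1.37-fold, and the other 6 with a higher mean lay between 1.06-fold and 1.28-fold. Tmx1 had the lower mean. The median difference of the 9 members was 0.19 on the log2 scale, against 0.01 for all probe sets tested. With limma's moderated test, 0 of the 9 members passed an adjusted p of 0.05, and neither did any other probe set (0% of all in either direction). At an unadjusted p under 0.05, 2 members were higher in transgenic fat and 0 lower, where 4.82% and 3.12% of all probe sets were. The same 2 members, Pdia6 and Txndc11, were those whose genotypes did not overlap, beside 3.38% of all probe sets with every transgenic library above every wild type library. In the opposite direction 0 members and 2.44% of all probe sets were without overlap. Pdia6 was the only member at 1.5-fold or more, a size reached by 1.03% of all.

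**Figure D1:**
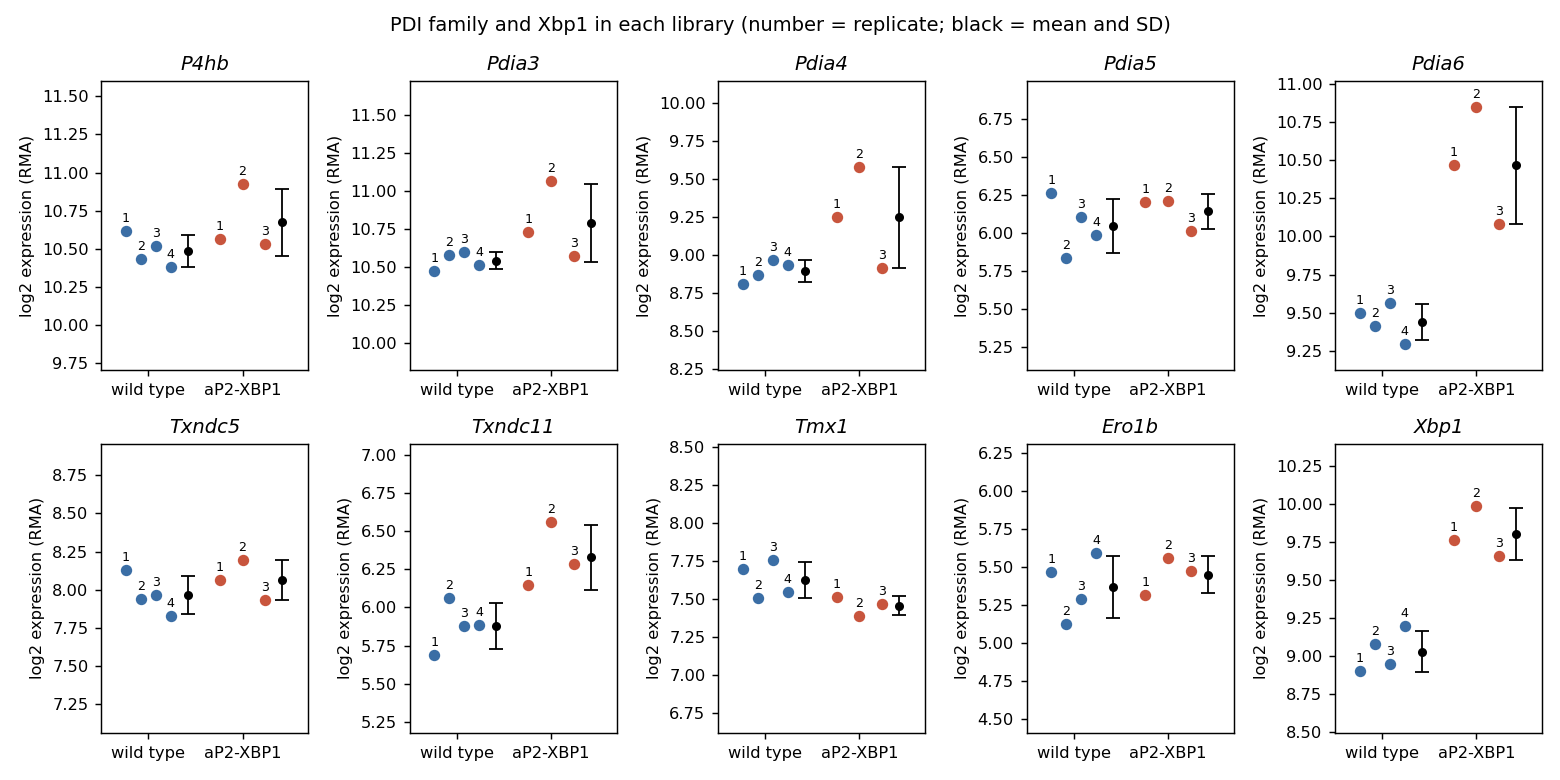
Log2 expression (vertical axis, RMA values, the same span of 1.9 units in each panel) of the 9 members and Xbp1 in each library, with wild type in blue, aP2-XBP1 transgenic in red, the replicate number above each point, and the mean and SD in black. The 3 transgenic points lie above the 4 wild type points for Pdia6, Txndc11 and Xbp1 and mix with them for the other genes.

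Pdia6, also called P5, is a PDI that binds the chaperone BiP. Its probe set (10394735) read 9.50, 9.41, 9.56 and 9.29 in wild type replicates 1 to 4 and 10.47, 10.85 and 10.08 in transgenic replicates 1 to 3. Every transgenic library was above every wild type library, with a gap of 0.52 between the nearest pair. The means were 9.44 ± 0.12 (SD, n = 4) and 10.47 ± 0.38 (SD, n = 3), a log2 difference of 1.03 (SE 0.18; 95% interval 0.60 to 1.46). By limma's p it was number 14 of 21789, its adjusted p was 0.622, and the exact permutation p (two-sided) was 0.0286, the lowest possible with 35 splits. Without transgenic replicate 2, its highest library, the difference was 0.84. Against wild type replicate 2 alone it was 1.06.

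Txndc11, a membrane-bound thioredoxin-domain protein of the ER, was the other gene without overlap. It read 5.69, 6.06, 5.88 and 5.88 in wild type replicates 1 to 4 and 6.15, 6.56 and 6.28 in transgenic replicates 1 to 3. The lowest transgenic library lay only 0.08 above the highest wild type one. Its wild type mean was 5.88 ± 0.15 (SD, n = 4) and its transgenic mean 6.33 ± 0.21 (SD, n = 3). They differed by 0.45 (SE 0.13; 95% interval 0.15 to 0.75). The limma adjusted p was 0.622 and the exact permutation p = 0.0286. Wild type replicate 2 was the highest control, and with it as the only control the difference was 0.27, or 1.21-fold.

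The 3 classical soluble isomerases shared a pattern in which transgenic replicate 2 led. P4hb encodes PDI itself, which also serves as the beta subunit of collagen prolyl hydroxylase and as a partner of the lipid transfer protein Mttp. It read 10.61, 10.43, 10.52 and 10.38 in wild type replicates 1 to 4 and 10.56, 10.93 and 10.53 in transgenic replicates 1 to 3. Only transgenic replicate 2 was above all wild type libraries, and the difference was 0.19 (SE 0.11; 95% interval -0.08 to 0.46; exact permutation p = 0.20). Without that library the difference was 0.06, and against wild type replicate 2 alone it was 0.24.

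Pdia3, or ERp57, works with the lectins calnexin and calreticulin on glycoproteins. It read 10.48, 10.57, 10.60 and 10.51 in wild type and 10.73, 11.07 and 10.57 in transgenic libraries, in replicate order. Transgenic replicates 1 and 2 were above every control and replicate 3 was among them. The difference was 0.25 (SE 0.12; 95% interval -0.03 to 0.53; exact permutation p = 0.0857), and 0.11 without transgenic replicate 2.

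Pdia4, or ERp72, carries an additional thioredoxin domain. It read 8.81, 8.87, 8.97 and 8.93 in wild type and 9.25, 9.58 and 8.92 in transgenic libraries, in replicate order. The arrangement was the same as for Pdia3, with replicates 1 and 2 above all controls and replicate 3 within their range. The difference was 0.35 (SE 0.15; 95% interval -0.01 to 0.71; exact permutation p = 0.0857), and 0.19 without transgenic replicate 2. The second, dimmer probe set of Pdia4 (10544538, wild type mean 3.82) differed by 0.23 (SE 0.12), also with overlap. It did not share the lead of transgenic replicate 2, which was its lowest transgenic library (3.96, against 4.16 and 4.02). Without that library its difference was 0.27.

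Pdia5, or PDIR, and Txndc5, or ERp46, are soluble isomerases with several thioredoxin domains. Pdia5 read 6.26, 5.84, 6.10 and 5.99 in wild type and 6.21, 6.21 and 6.01 in transgenic libraries, in replicate order. Wild type replicate 1 was the highest of all 7 and wild type replicate 2 the lowest. The difference of 0.10 (SE 0.11; 95% interval -0.17 to 0.36; exact permutation p = 0.486) became 0.31 against wild type replicate 2 alone and 0.03 without it. Txndc5 read 8.13, 7.94, 7.97 and 7.83 in wild type and 8.06, 8.19 and 7.93 in transgenic libraries. These values interleaved, with a difference of 0.10 (SE 0.09; 95% interval -0.12 to 0.32; exact permutation p = 0.371), which was 0.03 without transgenic replicate 2.

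Tmx1, a transmembrane member that acts on membrane-bound clients, went the other way. It read 7.70, 7.51, 7.75 and 7.55 in wild type and 7.52, 7.39 and 7.47 in transgenic libraries, in replicate order. Transgenic replicates 2 and 3 lay below every control and replicate 1 lay within their range, close to wild type replicate 2. The difference was -0.17 (SE 0.07; 95% interval -0.35 to 0.01; exact permutation p = 0.143). Against wild type replicate 2 alone it was -0.05, and without that library it was -0.21.

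Ero1b is the only oxidase of the set, one of the ERO1 enzymes that reoxidise PDI. It read 5.47, 5.13, 5.29 and 5.59 in wild type and 5.32, 5.56 and 5.47 in transgenic libraries, in replicate order. The transgenic values lay inside the wild type range, with a difference of 0.08 (SE 0.12; 95% interval -0.21 to 0.38; exact permutation p = 0.60). Wild type replicate 2 was the lowest library. The difference was 0.32 against it alone and 0.00 without it.

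**Figure D2:**
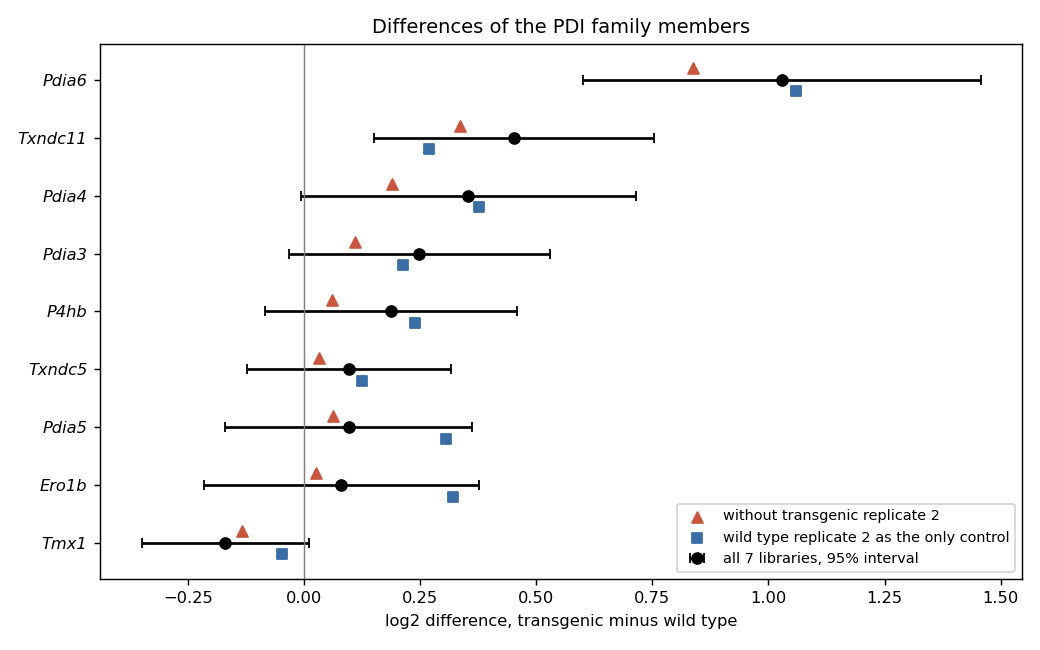
Log2 differences, transgenic minus wild type (horizontal axis), for each member (vertical axis). Black points show all 7 libraries with 95% intervals from limma, red triangles the value without transgenic replicate 2 and blue squares the value against wild type replicate 2 alone. The intervals of Pdia6 (0.60 to 1.46) and Txndc11 (0.15 to 0.75) do not reach 0, with no adjustment for the number of probe sets tested, and the sign of each member is the same in all 3 fits.

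Within each library, the members were also set against each other. Relative to the mean of the other 8 members, Pdia6 was higher in transgenic than in wild type fat by 0.86. For the other members the mean was taken without Pdia6, which would otherwise lower their values. By this measure Txndc11 differed by 0.32, Pdia4 by 0.21, Pdia3 by 0.09 and P4hb by 0.02. Txndc5, Pdia5, Ero1b and Tmx1 differed by -0.08, -0.08, -0.10 and -0.39. These ratios describe unequal change within the family, with no test, and do not show which member stayed constant.

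Across the 7 libraries, transgenic replicate 2 was the highest library for 6 of the 9 members, beside 13.5% of all probe sets. The exceptions were Pdia5, Tmx1 and Ero1b. The mean log2 value of the members was 8.25, 8.48 and 8.14 in transgenic replicates 1, 2 and 3 and ran from 7.97 to 8.07 in wild type. Without transgenic replicate 2 the median difference of the members was 0.06, although 8 of 9 still had a higher mean (53.8% of all probe sets). Xbp1 was also highest in that library, at 9.99, against 9.76 and 9.66 in the other transgenic libraries, and whether this moves the member values was not tested. Against wild type replicate 2 by itself, 8 of 9 members again had a higher transgenic mean (52.1% of all probe sets), the median difference was 0.27, and all 3 transgenic libraries exceeded that library for 6 of the 9 members (24% of all probe sets).

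**Figure D3:**
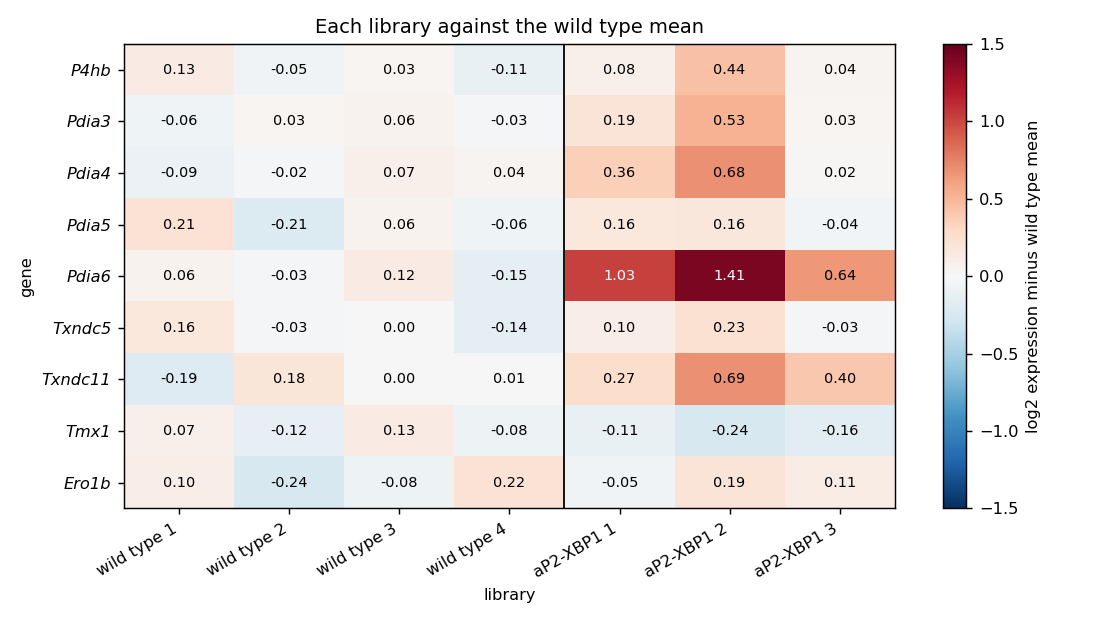
Log2 expression of each member (rows) in each library (columns) minus the gene's wild type mean, with the value printed in each cell and colour from blue (lower) to red (higher). Pdia6 reads 1.03, 1.41 and 0.64 in the 3 transgenic libraries, and transgenic replicate 2 is highest or shares the highest value among them for every gene but Tmx1.

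Some members followed each other closely over the libraries. Pdia3 and Pdia4 had the highest correlation of the 36 pairs (Pearson r = 0.98 over 7 libraries, and 0.96 after each genotype's mean was removed). P4hb and Txndc5 came next in the set (0.89, and 0.87 within genotype) together with Pdia4 and Pdia6 (0.89 and 0.90). Txndc11 and Tmx1 had the most negative value (-0.86, and -0.71 within genotype). The highest value of Ero1b was 0.41, with Pdia5. The median over pairs was 0.43, and 29 of the 36 were above 0. All points share the same 7 arrays and their common normalization, so these values are descriptions.

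The genes most like Pdia6 were sought among 10885 probe sets of above-median brightness outside the family. The 8 highest were Hspa5 (r = 0.98), Os9, Dpagt1, Sdf2l1, Manf, Rpn2, Slc35b1 and Cdk5rap3 (0.96). Hspa5 is the chaperone BiP, Sdf2l1 and Manf are ER-resident proteins of the unfolded protein response, Os9 is a lectin of ER-associated degradation, and Dpagt1 and Rpn2 act in N-glycosylation. After removal of genotype means these 8 had values of 0.74 to 0.92, taken from the same 7 libraries that picked them. The highest of 10885 values, here and for the mean of the members, are high in part through that choice. They are descriptions only. Hspa5 differed by 0.65 between genotypes, Sdf2l1 by 0.97 and Slc35b1 by 0.70. The mean of the 9 members was most like Plpp5, Sdf2l1, Manf, Nop16, Magt1, Hyou1, Hspa5 and Slc35b1 (r = 0.96 to 0.98). Plpp5 and Nop16 differed by only 0.13 and 0.11 between genotypes, and their r within genotype was 0.98 and 0.97, beside 0.90 to 0.95 for the other 6.

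Other ER proteins with thioredoxin domains were split in direction. Of 16 such genes, the transgenic mean was higher for 8 (53.6% of all probe sets), 0 passed the adjusted test, and the median difference was 0.03. Agr2 read 2.32 in every library, and the rest were lower. Against wild type replicate 2 alone, 10 of the 16 were level or higher, Agr2 being the level one, with a median of 0.01. Of all probe sets, 52.1% were higher. No test compared this list with the members. Tmx2, a membrane relative of Tmx1, differed by 0.25 (SE 0.09) without overlap, though the gap between the genotypes was only 0.004. Against wild type replicate 2 alone Tmx2 differed by 0.11. Dnajc10, a reductase that works with BiP, differed by -0.49 (SE 0.19). Wild type replicate 2 stood at 8.20, close to the 8.13 to 8.26 of transgenic fat, while the other controls read 8.78, 8.73 and 9.05. Casq1, a calcium-binding protein of muscle with thioredoxin-like folds, differed by -1.83 (SE 0.55) without overlap and followed the libraries with smooth muscle transcripts, from 4.94 to 6.06 in wild type replicates 1, 3 and 4 against 3.58 in replicate 2.

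The ER oxidases and peroxidases, which supply oxidising power to the PDI family, were also mixed. Of 11 genes the mean was higher for 6 and lower for 5 (higher for 53.6% of all probe sets), with 0 passing and a median difference of 0.05. Against wild type replicate 2 alone 8 of 11 were higher (52.1% of all probe sets), with a median of 0.04. Ero1a, the more widely expressed ERO1 enzyme, differed by 0.05 (SE 0.04), and Prdx4, a peroxidase that reoxidises PDI, by -0.10 (SE 0.10), or 0.04 against wild type replicate 2 alone. Gpx8, an ER peroxidase, differed by 0.34 (SE 0.12), and by 0.22 without transgenic replicate 2. The selenoprotein Selenof read 9.97 to 10.09 in wild type and 10.15 to 10.32 in transgenic fat, without overlap, a difference of 0.19 (SE 0.05). Selenom, its relative, differed by -0.20 (SE 0.06), and by -0.10 against wild type replicate 2 alone. Its genotypes met at 5.31, the value of wild type replicate 2 and of transgenic replicate 2.

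Among 12 partner proteins of the members, 8 had a higher mean (53.6% of all probe sets), 0 passed and the median difference was 0.08. It was 0.05 without transgenic replicate 2 and 0.17 against wild type replicate 2 alone. Hspa5, which binds Pdia6, read 10.07, 10.07, 10.15 and 10.09 in wild type and 10.62, 11.06 and 10.55 in transgenic libraries, so the genotypes did not overlap (difference 0.65, SE 0.12, and 0.49 without transgenic replicate 2). Its co-chaperone Dnajb11 differed by 0.46 (SE 0.17), also without overlap, and the chaperone Hsp90b1 by 0.23 (SE 0.11) with overlap. Without transgenic replicate 2 these 2 differences were 0.26 and 0.12. Calr and Canx, the lectins that recruit Pdia3, differed by 0.12 (SE 0.10) and 0.10 (SE 0.07), and by 0.01 and 0.05 without that library. The catalytic subunits that pair with P4hb differed by -0.20 (P4ha1) and -0.07 (P4ha2), and Mttp by 0.17, all with overlap. The difference of P4ha2 turned to 0.02 without wild type replicate 3. Against wild type replicate 2 alone P4ha1, P4ha2 and Mttp differed by -0.39, -0.05 and 0.39.

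**Figure D4:**
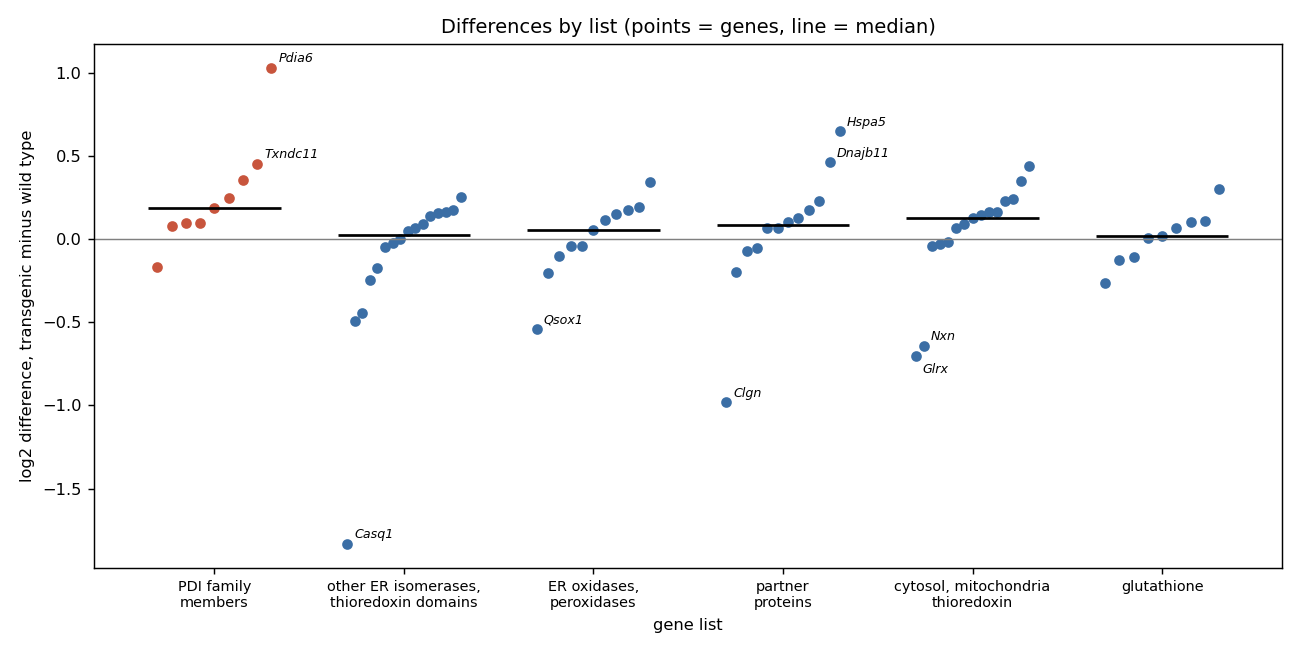
Log2 differences, transgenic minus wild type (vertical axis), of the members (red) and of 5 related lists (blue), with the median of each list as a line. The medians lie at 0.19 for the members and between 0.02 and 0.12 for the other lists, and Pdia6 and Hspa5 are the highest points.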

How the data were processed

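The authors deposited log2 expression values per probe set, made with RMA per the submitters' processing notes. RMA corrects background, normalizes arrays by quantiles and summarises probes, so a change common to most genes would be hidden. For its version and probe set definition, nothing is given in the sources used, and scanner files were not used. All 7 columns matched samples. Array medians ran from 3.99 to 4.04, and precision is limited by the number of arrays. Genes were named from the platform annotation, and Ero1lb was matched through its RefSeq synonym.

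Differences were fitted over 21789 probe sets with limma 3.58.1 in R 4.3.3 (lmFit, eBayes, genotype only, two-sided) with Benjamini-Hochberg adjustment over all of them, and single values with an exact two-sided permutation test on the difference of means. Intervals are limma's moderated 95% intervals. The members and lists were chosen with earlier results of these data known, so no test is given for a list. Named genes were the members, Xbp1, the up to 3 smallest p and the partner proteins of each list, and the 8 most alike. On simulated data over 21789 probe sets with 50 changed at each size, the fit recovered 36%, 70%, 98% and 98% of log2 changes of 0.5, 1, 2 and 3. That simulation only checked that the fit works. Its noise was drawn independently for each library, without the differences that many genes share here. The shares are therefore not the power in these data. Promoter windows came from RefSeq (GRCm38.p6). No protein sequences were used here. Alternatives covered the replicate number as a block, quantile normalization, a common median, a filter of the dimmest 25%, every row, 1 probe set or the mean per gene, a robust prior with an intensity trend, weights per array (statmod 1.5.0), each library left out, and wild type replicate 2 as the only control.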

Additional observations from a re-analysis of the deposited data

Results flagged for a closer look

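Among 78 genes examined in the 4 wild type libraries, 10 had 1 library far from the other 3, measured as its gap to the nearest library divided by the whole range. Chance flags about 1 in 20 groups, but the count here cannot be set against that rate. Serpina1f, Spink8 and Defb42 were included because they set libraries apart, and in other flagged genes tied values fixed the share at 1. None of the 9 members was among them.

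The epididymal transcripts Serpina1f (gap share 0.908, 2.74 in wild type replicate 2 against 10.70 to 11.50), Spink8 (0.903, 2.45 against 8.82 to 9.51) and Defb42 (0.889, 2.51 against 8.41 to 9.14) were low in wild type replicate 2. Clgn, a lectin chaperone of male germ cells, was high in wild type replicate 4 (0.963, 6.55 against 2.23 to 2.40). Ero1a was lower in wild type replicate 2 (0.942), but by 0.02 only, at 7.26 against 7.27 to 7.28. Slc7a11, the cystine importer, was high in wild type replicate 1 (0.898, 3.79 against 3.17 to 3.23). In 4 further genes the other 3 libraries held the same value, so the share was 1: Gpx7 in wild type replicate 4 (5.05 against 5.42), and Calr3 (3.36 against 3.51), Txndc9 (7.10 against 7.34) and Txndc17 (9.61 against 9.55) in wild type replicate 1.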

How the results depend on the processing

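Each of the 9 member differences kept its sign under all 17 alternatives. In fits with more than 1 library per genotype, 0 of them passed an adjusted p of 0.05. Several alternatives could not change a sign. The filter, every row, 1 probe set per gene and the robust prior leave the differences as they were, and the mean per gene changed only Pdia4. The replicate block gave the same differences as leaving out wild type replicate 4. Ero1b was at 0.0004 without wild type replicate 2. The adjusted p of Pdia6 ran from 0.189 to 0.817 and its difference from 0.84 to 1.22. The count of members with a higher transgenic mean was 8 throughout, and their median difference ran from 0.06 (without transgenic replicate 2) to 0.27. With 1 library left out, limma called from 0 to 7 probe sets higher and from 0 to 84 lower, the upper counts without wild type replicate 2, and 0 of the 9 members among them. Without that library the adjusted p of Pdia6 was 0.192 and that of Txndc11 was 0.255. With the replicate number as a block, limma again called 0 probe sets and the members' median difference was 0.155. Deviations of same-numbered libraries correlated at -0.14, -0.09 and 0.06, and none correlated best with its own number. Even the best partners reached only 0.05 to 0.14, so these values do not settle whether the numbers pair the samples. The fit against wild type replicate 2 alone assumes that 1 library varies like the transgenic ones.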

Other observations

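Thioredoxin and glutathione systems outside the ER were measured for comparison. Of 15 cytosolic and mitochondrial thioredoxin genes, the transgenic mean was higher for 10 and lower for 5 (higher for 53.6% of all probe sets), 0 passed the adjusted test in limma, and the median difference was 0.12. Against wild type replicate 2 alone 8 of 15 were higher (52.1% of all probe sets), with a median of 0.01. Txnrd2 and Glrx5, both mitochondrial, read higher by 0.35 (SE 0.10) and 0.44 (SE 0.13), without overlap of the genotypes but with gaps of only 0.030 and 0.007. Against wild type replicate 2 alone both differences were 0.14. Nxn, nucleoredoxin, differed by -0.64 (SE 0.15), also without overlap, and by -0.27 against that library. Without wild type replicate 2 its difference was -0.77 and passed, with a limma adjusted p = 0.0444, beside 0.622 with all libraries. The abundant cytosolic thioredoxin Txn1 differed by -0.03 (SE 0.07). Of 9 glutathione genes measured, the mean was higher for 6 and lower for 3 (higher for 53.6% of all probe sets), with a median difference of 0.02 and 0 passing. Slc3a2, the heavy chain of the cystine importer, read 9.42 to 9.61 in wild type and 9.22 to 9.27 in transgenic fat, a difference of -0.27 (SE 0.06). Ggt5 differed by 0.30 (SE 0.15) and Gss by 0.11 (SE 0.08), with overlap, and by 0.04 and -0.03 against wild type replicate 2 alone.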
